A study of Mus musculus with 9 samples.

Results

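A set of 7 protein-coding genes that were close to silent in control mouse liver, and carried 5 to 422 counts in each library of the tumour models, is described here: Kcna4, Alpk3, Ttc27, Mrgpra3, Lrrc75b, Thy1 and Nfkbib. They are 7 of the 24419 gene symbols in the deposited count table. They were chosen by these counts themselves: 0 to 2 counts over the 3 CTRL libraries and a large rise in MODEL1 or MODEL2. Their differences from CTRL are therefore a description, and the calls the fit made on them are printed only as what the choice fixes. The table comes from liver of 9 male FVB mice, 3 libraries in each of 3 groups. CTRL mice were 13, 13 and 17 weeks old, on a normal diet, and the labels do not state an injection for them, while the design text names a control that received wild-type NFE2L2 with T41A beta-catenin. If these are the same mice, T41A is shared by all 3 groups. MODEL1 mice, all 18 weeks old, carried NFE2L2 G31A and CTNNB1 T41A. MODEL2 mice, 19, 20 and 22 weeks old, carried NFE2L2 T80K and CTNNB1 T41A. In both models the plasmids (20 µg each in 2 ml saline) and a Sleeping Beauty transposase, an enzyme that pastes the cargo into the genome, were delivered by hydrodynamic tail vein injection, which reaches only some hepatocytes, so a liver sample mixes cells with and without the cargo. The labels do not say whether the pieces sequenced were tumour. No group in the labels carried either change alone and no age was shared between groups, so NFE2L2 change, CTNNB1 change, injection, tumour growth and age cannot be told apart in a difference from CTRL.

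NFE2L2 encodes NRF2, a transcription factor that switches on antioxidant and detoxification genes through antioxidant response elements. KEAP1 normally holds it back by marking it for degradation, and changes in its KEAP1-binding motifs release it. CTNNB1 encodes beta-catenin, the effector of Wnt signalling, which in liver drives the pericentral programme together with TCF/LEF factors. The 7 genes belong to neither programme by name and are best known from other tissues. Kcna4 encodes a fast-inactivating Shaker-type potassium channel of neurons and heart. Mrgpra3 encodes a Mas-related receptor of itch-sensing neurons. Thy1 (CD90) is a cell surface glycoprotein of T cells, neurons and fibroblasts. Alpk3 is an alpha-kinase of heart and skeletal muscle. Nfkbib encodes the inhibitor IkB beta, which keeps NF-kB in the cytoplasm. Ttc27 and Lrrc75b are named for their tetratricopeptide and leucine-rich repeats.

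Libraries held 219504 to 325177 counts. A count of 0 in a library allows up to 3 counts, which was 9.43 to 14.6 CPM (counts per 1000000 counts of effective library size), and for the 3 CTRL libraries together 4.33 CPM. These limits cover counting error only, because PCR copies are not independent molecules. Albumin (Alb), the defining hepatocyte marker, was present at 94 to 337 counts a library, a low level for liver tissue. Rn45s, the ribosomal RNA precursor, took 2.20% to 13.4% of counts, and it exceeded 8% in CTRL replicate 1 and in MODEL1 replicates 1 and 3. The labels do not state outright that each library is a separate animal, so p-values measure the spread between these libraries. The strand setting of the authors' counting is not given in the sources used here, so reads from either strand of a locus could underlie a gene's count.

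The 7 genes together held 2, 0 and 1 counts in the CTRL libraries, 840, 761 and 950 in the MODEL1 libraries, and 366, 405 and 393 in those of MODEL2. Each of the 6 model libraries lay far above each CTRL library, and the MODEL2 sums were all below the MODEL1 sums. The lowest single value in a model library was 5 counts of Nfkbib in MODEL1 replicate 2, and it was above every CTRL value. In this bulk tissue, a change in the number of cells that make an RNA and a change in the RNA per cell cannot be told apart. edgeR called all 7 higher in MODEL1, where 11.9% of the 2639 tested genes were called higher, and all 7 higher in MODEL2, where 8.3% were (11% and 4.96% were called lower). All MODEL1 libraries exceeded all CTRL libraries for 18.5% of tested genes, and all MODEL2 libraries did so for 17.5%. As these contrasts chose the genes, nothing is read from the counts of 7.

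**Figure D1:**
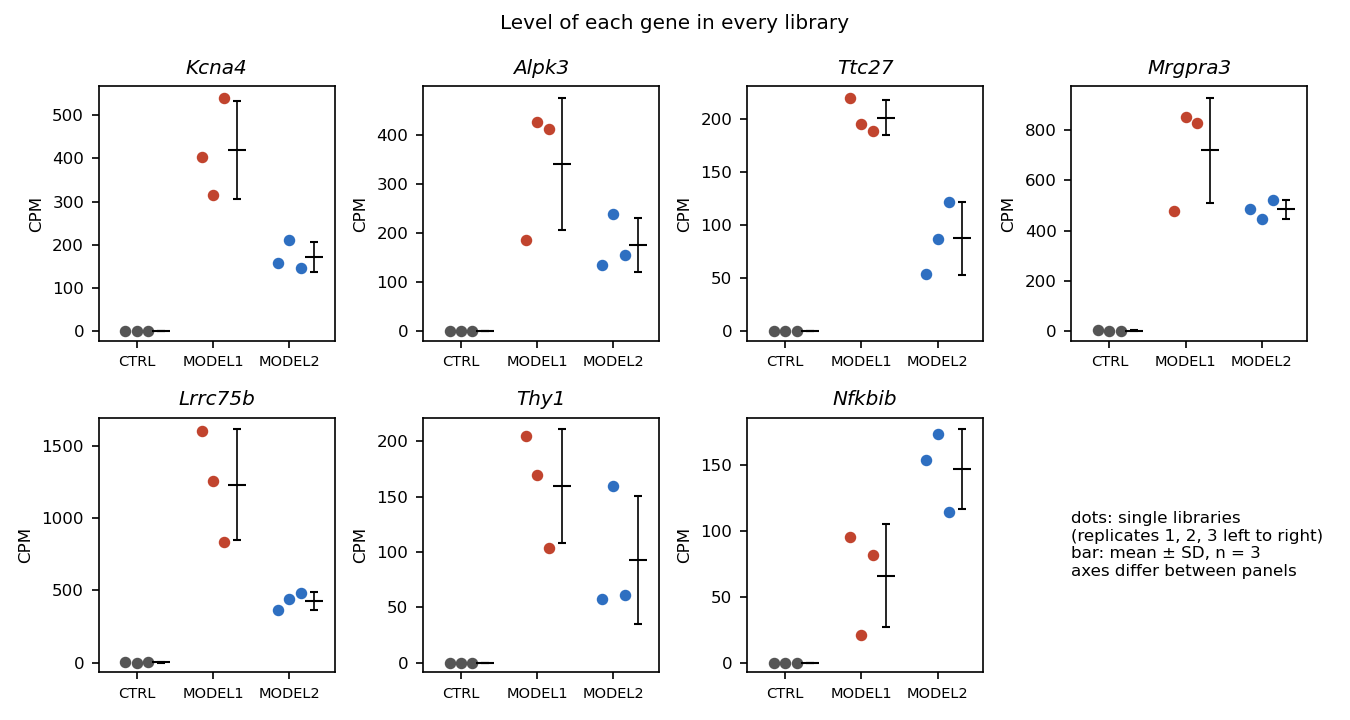
Level of each of the 7 genes in every library, in CPM (linear axes that differ between panels), for CTRL, MODEL1 and MODEL2; dots are single libraries and the bar is the mean ± SD of 3. CTRL dots sit at or next to 0 in every panel, the MODEL1 mean is highest for 6 genes and the MODEL2 mean for Nfkbib.

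The membrane proteins were each higher in all 6 model libraries than in CTRL. Mrgpra3, the itch receptor, held 1, 0 and 0 counts in CTRL, 126, 201 and 263 in MODEL1, and 127, 103 and 128 in MODEL2. Relative to CTRL the ratio was 500 in MODEL1 (exact 95% counting interval 89.4 to 19775) and 336 in MODEL2 (59.9 to 13297). Its MODEL2 libraries were close together, 484 ± 37.8 CPM (SD, n = 3), and overlapped with the MODEL1 libraries, 720 ± 210 CPM, where replicate 1 was low at 478 CPM.

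Kcna4, the potassium channel, held 0 counts in every CTRL library, 106, 74 and 172 in MODEL1, and 41, 49 and 36 in MODEL2. That was 419 ± 114 CPM in MODEL1 and 172 ± 35.0 CPM in MODEL2, at least 99.4-fold and 39.4-fold above CTRL, where the bound takes 3 counts over the 3 CTRL libraries. All MODEL1 libraries lay above all MODEL2 libraries. Thy1, the surface glycoprotein, held 0 counts in every CTRL library, 54, 40 and 33 in MODEL1, and 15, 37 and 15 in MODEL2, at least 35.9-fold and 20.9-fold above CTRL. The models overlapped for Thy1, because MODEL2 replicate 2, at 160 CPM, stood above MODEL1 replicate 3, at 104 CPM.

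Alpk3 and Nfkbib encode signalling proteins. Alpk3, the muscle kinase, held 0 counts in every CTRL library, 49, 100 and 131 in MODEL1, and 35, 55 and 38 in MODEL2, at least 79.1-fold and 40.01-fold higher. MODEL1 replicate 1, at 186 CPM, fell below MODEL2 replicate 2, at 238 CPM, so the models overlapped. Nfkbib, the NF-kB inhibitor, held 0 counts in every CTRL library, 25, 5 and 26 in MODEL1, and 40, 40 and 28 in MODEL2, at least 15.8-fold and 33.8-fold higher. It was the only gene of the 7 with all MODEL2 libraries above all MODEL1 libraries.

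The repeat proteins had their higher counts in MODEL1 libraries. Lrrc75b held 1, 0 and 1 counts in CTRL, 422, 295 and 265 in MODEL1, and 94, 101 and 118 in MODEL2, a ratio to CTRL of 416 (115 to 3439) and of 147 (40.3 to 1217). With 1229 ± 385 CPM in MODEL1 it had the most counts of the 7. Ttc27 held 0 counts in every CTRL library, 58, 46 and 60 in MODEL1, and 14, 20 and 30 in MODEL2, at least 46.3-fold and 20.01-fold higher. Neither gene overlapped between the models.

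Age and Rn45s were set beside these values. CTRL libraries, from mice of 13, 13 and 17 weeks, held 2, 0 and 1 counts over the 7 genes. MODEL1 libraries, all at 18 weeks, held 840, 761 and 950. MODEL2 libraries, at 19, 20 and 22 weeks, held 366, 405 and 393. In the same order, Rn45s took 10.3%, 6.89% and 2.43% of counts in CTRL and 13.4%, 2.68% and 8.62% in MODEL1. In MODEL2 it took 4.11%, 2.73% and 2.20%. With age as a covariate, the fitted log2 fold change of Ttc27 in MODEL2 against CTRL went from 7.45 to 5.46 (edgeR adjusted p = 0.0748). Its call was lost, the 1 such loss among 14 fold changes against CTRL over 17 alternatives each. No age was shared between groups, so that fit cannot tell age apart from the models. The cause of the rise was not tested.

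Levels of different genes were compared per kilobase of merged GENCODE exon. The annotation behind the counts is not stated, so the lengths, and with them the order, may differ from those of the counting. For Kcna4, RefSeq ends the gene 28302 bases past its GENCODE end. In MODEL1 the order was Mrgpra3 (556 ± 162 CPM per kb, SD, n = 3), Lrrc75b (267 ± 83.6), Kcna4 (86.7 ± 23.6), Ttc27 (63.1 ± 5.19), Thy1 (53.3 ± 17.2), Alpk3 (52.9 ± 20.8) and Nfkbib (30.4 ± 18.1). In MODEL2 Mrgpra3 (374 ± 29.2 CPM per kb) and Lrrc75b (92.5 ± 13.1) again led, and Nfkbib (67.6 ± 13.9) came next. Kcna4 (35.5 ± 7.24 CPM per kb), Thy1 (30.98 ± 19.4), Ttc27 (27.4 ± 10.7) and Alpk3 (27.2 ± 8.50) followed. Mrgpra3 and Lrrc75b differed by more than the sum of their SDs in both models, as did Lrrc75b and Kcna4 in MODEL1 and Nfkbib and Kcna4 in MODEL2. All other neighbours in these orders differed by less.

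The models were compared with each other, on the same MODEL1 and MODEL2 counts by which the genes were chosen. With CTRL near 0, a large rise is a high level in a model, so the choice can favour a difference between the models. These values are therefore a description too. Lrrc75b and Kcna4 were lower in MODEL2 than in MODEL1. By edgeR's quasi-likelihood test with Benjamini-Hochberg adjustment over 2639 genes, Lrrc75b had a log2 fold change of -1.53 ± 0.25 (SE; adjusted p = 0.000446) and Kcna4 of -1.29 ± 0.30 (adjusted p = 0.0113). Of all tested genes 7.28% were called in either direction, 3.41% lower and 3.87% higher. Because of the choice, nothing is read from the 2 of 7. The other five did not pass: Ttc27 at -1.20 ± 0.37 (edgeR adjusted p = 0.0520), Alpk3 at -0.96 ± 0.34 (0.101), Thy1 at -0.78 ± 0.43 (0.332), Mrgpra3 at -0.57 ± 0.25 (0.198) and Nfkbib, with the opposite sign, at 1.13 ± 0.46 (0.161). Libraries of the models did not overlap for 4 of the 7 genes (Lrrc75b, Kcna4, Ttc27 and Nfkbib), a separation found in 26.8% of tested genes (13.2% with MODEL1 above). The median of the 7 was -0.96, that of all tested genes 0.01. Of the 19 other genes with 0 to 2 CTRL counts that were called higher in both models, 17 had a negative value. Their median was -1.26, and 8 were called lower in MODEL2 and 0 higher. Genes with so few CTRL counts could be tested only if a model raised them. Of the 31 tested, 31 were called higher in MODEL1 and 26 in MODEL2, so this choice can itself favour negative values. Lower levels in MODEL2 were seen outside the 7 too, and nothing more is read from these 19.

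The Lrrc75b call held in each of the 17 alternative settings. The Kcna4 call was lost with age as a covariate (-1.14 ± 0.53; edgeR adjusted p = 0.279) and without the 3 libraries with over 8% Rn45s (-0.79 ± 0.43; 0.383). It was also lost without MODEL1 replicate 3 (-1.05; edgeR adjusted p = 0.1003), MODEL2 replicate 1 (-1.21; 0.0691) or MODEL2 replicate 3 (-1.18; 0.0713).

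**Figure D2:**
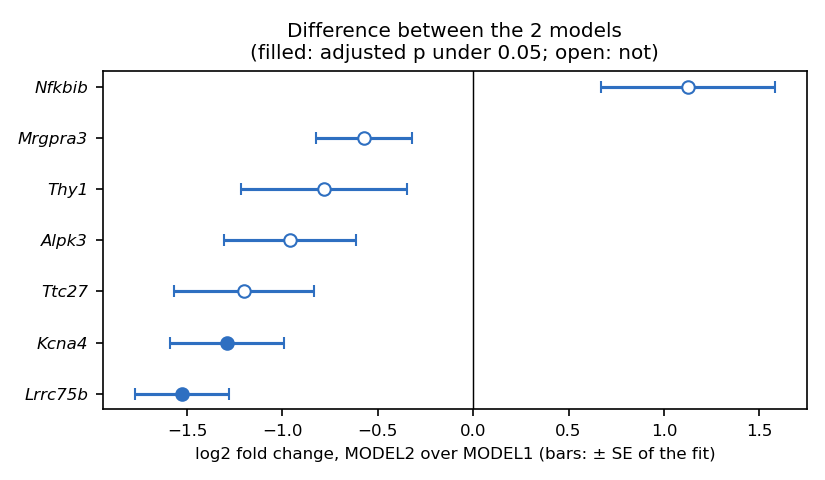
Log2 fold change of MODEL2 over MODEL1 for each gene, with bars of ± 1 SE from the edgeR fit; filled points had an adjusted p under 0.05. Lrrc75b (-1.53) and Kcna4 (-1.29) are filled, the next 4 are open and negative, and Nfkbib (1.13) is open and positive.

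Genes around the 7 were taken from the GENCODE M21 annotation of mm10, by position alone. Close neighbours were those overlapping the gene or ending within 10 kb, and the nearest gene on each side and strand within 200 kb. There were 30, of which 12 had counts here, and 3 of the 12 were at 0 in every library. The 12 held 40 counts over the CTRL libraries, 67 over MODEL1 and 33 over MODEL2, against 3, 2551 and 1164 for the 7 genes. No library had more than 10 counts of any of them. None reached the count filter in edgeR or DESeq2, so none was tested. With no filter edgeR could fit 9 of them. Against CTRL, 0 were called in either model and 0 had an unadjusted p under 0.05 (lowest edgeR adjusted p 0.695 and 0.671). Without the filter edgeR called 619 of 14907 genes in MODEL1 and 302 in MODEL2. These shares are so small that 0 of 9 says little about the neighbours. In MODEL2 against MODEL1 0 of the 9 were called, and 1, Usp2, had an unadjusted p under 0.05 (lowest adjusted p 0.713). Neighbours within 50 kb, 30 genes with 16 counted, had up to 15 counts in a library and none was tested either.

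Kcna4 (chromosome 2, 107290639 to 107298502, plus strand) stood alone. Its nearest annotated gene in the rule's range was the pseudogene Gm13903, 166678 bases away on the opposite strand and not analysed here, and the only other symbol counted within 250 kb was at 0 in all libraries. RefSeq on GRCm38.p6 extends Kcna4 by 28302 bases past the GENCODE end. Mrgpra3 (chromosome 7, 47588950 to 47601372, minus strand) lies in a row of Mas-related pseudogenes on its own strand, the nearest, Mrgprc1-ps, 10016 bases away. The nearest gene opposite Mrgpra3, the miRNA gene Gm22427, is 151349 bases away, and the 3 other counted symbols within 250 kb were at 0 in all libraries.

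Lrrc75b (chromosome 10, 75550123 to 75560330, minus strand) starts head to head with Ggt1, the gamma-glutamyltransferase of glutathione breakdown, 1273 bases away on the opposite strand in GENCODE and 395 bases away in RefSeq. Ggt1 itself held 0, 2 and 0 counts in CTRL, MODEL1 and MODEL2. Thy1 (chromosome 9, 44043384 to 44048579, plus strand) has the lincRNA Gm39323 2324 bases away on the opposite strand, not analysed here. Its next counted neighbour, the deubiquitinase Usp2, 18441 bases away on the same strand, held 9, 5 and 5 counts in CTRL, 7, 7 and 10 in MODEL1, and 2, 2 and 2 in MODEL2. Usp2 and Thy1 both had fewer counts in MODEL2 than in MODEL1, but its CTRL counts were all above its MODEL2 counts, while Thy1 had 0 in CTRL.

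Alpk3 (chromosome 7, 81057600 to 81105612, plus strand) contains the sense-intronic Platr32, and the nucleoside transporter gene Slc28a1, 9186 bases away on the same strand, was at 0 in all libraries. RefSeq places a long non-coding RNA, Gm51490, on the opposite strand, sharing 15445 bases of gene body with Alpk3; it was not analysed here. Ttc27 (chromosome 17, 74717732 to 74863570, plus strand) holds the antisense genes AC151410.1 and AC154178.2 within its body, both with 0 exon bases shared with it and not analysed here. Birc6, 14375 bases away, held 11, 20 and 11 counts per group.

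Nfkbib (chromosome 7, 28758251 to 28767512, minus strand) is the 1 gene of the 7 with an opposite-strand exon, 356 of its 2169 exon bases (16.4%). Of these, 314 are shared with Ccer2 at its end and 42 with the deacetylase gene Sirt2 at its start. Ccer2, counted under its older symbol Gm6537, held 1, 8 and 3 counts in the groups and Sirt2 0, 3 and 3. Capn12, a calpain within 250 kb of Nfkbib, was the only tested gene in any of the 7 windows. It held 172 to 221 counts in CTRL and 200 to 322 in the models, and it too has an opposite-strand exon. Its log2 fold change was 0.15 in MODEL1 (edgeR adjusted p = 0.655) and 0.37 in MODEL2 (0.257). For comparison, 61.1% of the 2531 tested genes placed on the genome have an opposite-strand exon. The share was lower among the 19 other genes with 0 to 2 CTRL counts called higher in both models. Of these, 18 were placed and 6 (33.3%) have such an exon, so a low share was not particular to the 7.

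**Figure D3:**
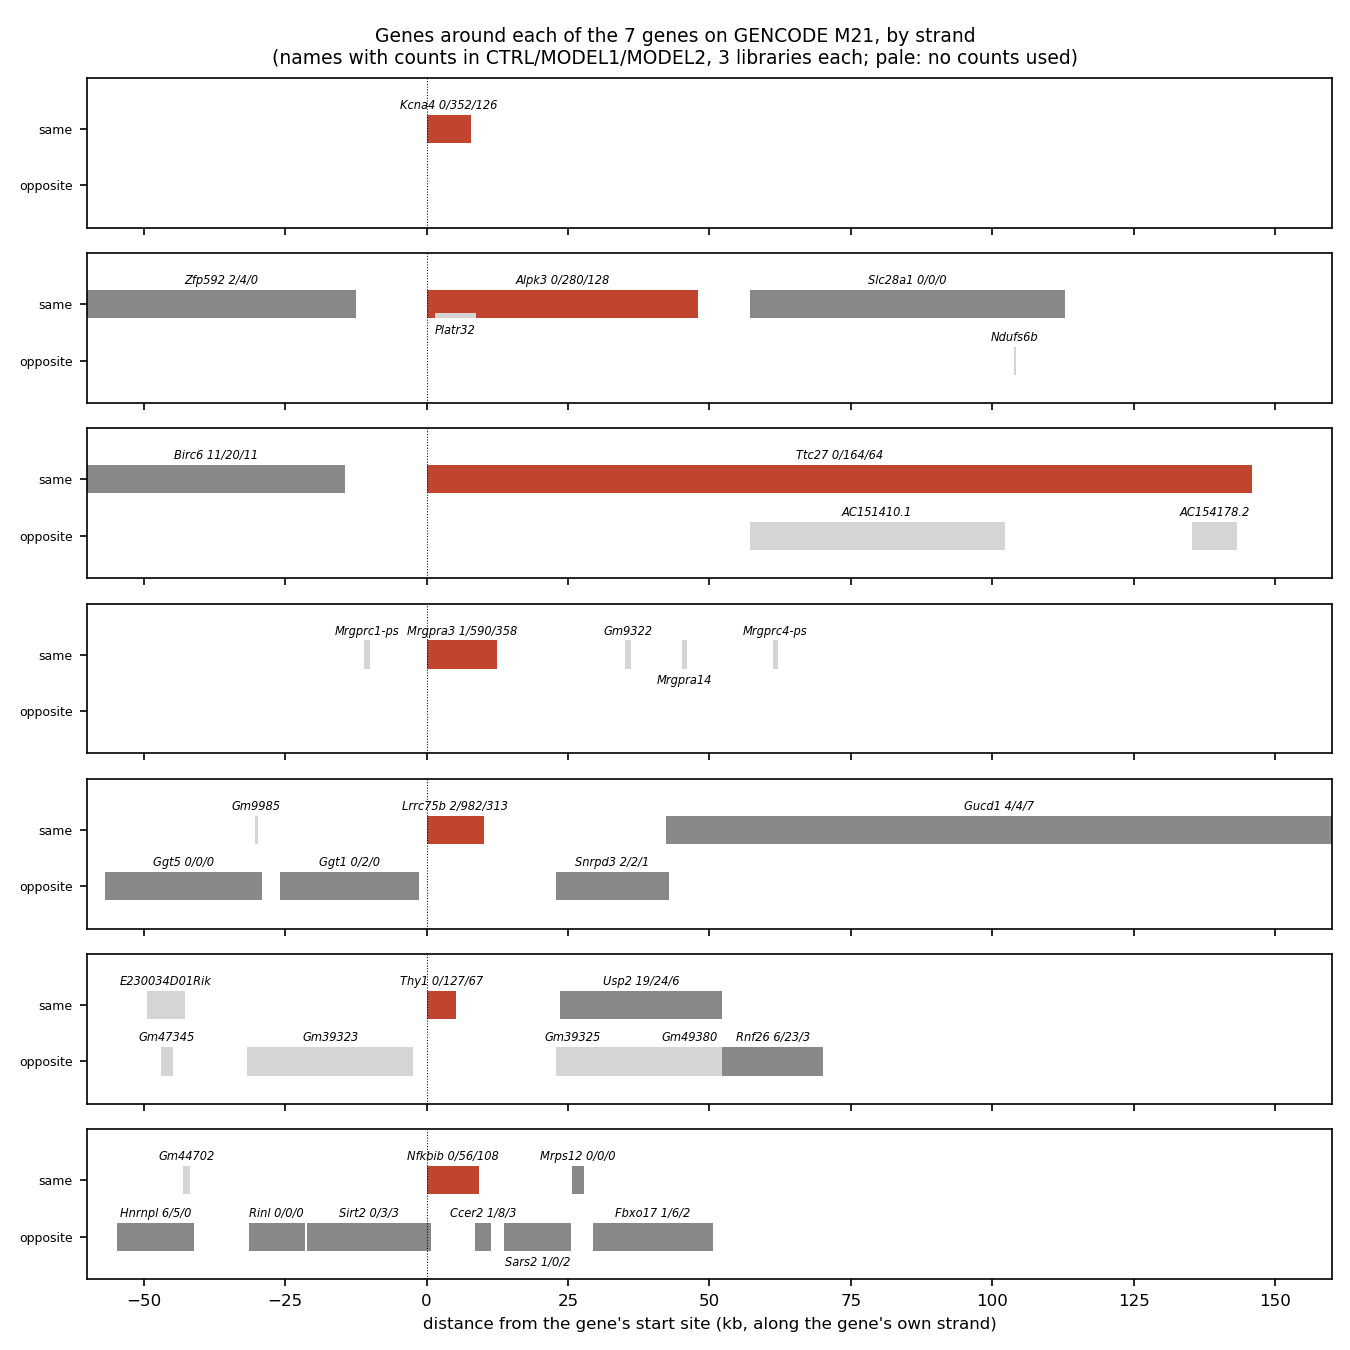
Annotated genes around each of the 7 genes (red), drawn to scale by distance in kb from the start site along the gene's own strand; the upper row is the same strand and the lower row the opposite strand. Numbers after a name are counts over the 3 libraries of CTRL, MODEL1 and MODEL2; dark grey neighbours hold at most 24 counts in a group, and pale ones have no counts used here.

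Sequence shared with other transcripts was counted as 50-base words of each gene's GENCODE transcripts. Kcna4, Alpk3, Ttc27 and Thy1 shared none with any other gene on either strand. Mrgpra3 shared 89 of its 1246 words (7.14%) with 4 related genes, among them Mrgpra4, Mrgpra14 and Mrgpra6. Mrgpra4 held 0, 1 and 0 counts in the groups and Mrgpra6 0 in all. Lrrc75b shared 53 of 4590 words, spread over 79 genes, on the same strand, and 37 (0.81%), spread over 61 genes, on the opposite strand. Nfkbib shared 267 of 2116 words (12.6%) with Ccer2, on the opposite strand.

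Promoter sequences from RefSeq (GRCm38.p6) were found for 4 of the 7 genes, Kcna4, Alpk3, Ttc27 and Nfkbib, and are shown because the genes stood high in the same libraries while NRF2 and beta-catenin were the factors delivered. Each run is the part of the 250 bases before the RefSeq start that lies outside annotated exons, on the gene's strand, and capitals mark a match to the antioxidant response element core (TGACNNNGC), a TCF/LEF site (ATCAAAG) or an AP-1 site (TGACTCA), searched on both strands; the AP-1 letters can lie within the first motif. The coordinates are chr2:107290339-107290588 (plus) for Kcna4, chr7:81057350-81057468 (plus) for Alpk3, chr17:74717500-74717731 (plus) for Ttc27 and chr7:28766645-28766734 (minus) for Nfkbib, the last running from the RefSeq start of Nfkbib to the base before the GENCODE start of Sirt2.
Kcna4: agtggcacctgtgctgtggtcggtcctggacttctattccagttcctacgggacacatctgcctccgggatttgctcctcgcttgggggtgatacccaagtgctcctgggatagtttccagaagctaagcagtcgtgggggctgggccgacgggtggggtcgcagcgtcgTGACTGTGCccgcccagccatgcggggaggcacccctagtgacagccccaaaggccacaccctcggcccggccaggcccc
Alpk3: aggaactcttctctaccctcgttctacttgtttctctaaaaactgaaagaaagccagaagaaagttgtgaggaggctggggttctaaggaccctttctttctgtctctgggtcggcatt
Ttc27: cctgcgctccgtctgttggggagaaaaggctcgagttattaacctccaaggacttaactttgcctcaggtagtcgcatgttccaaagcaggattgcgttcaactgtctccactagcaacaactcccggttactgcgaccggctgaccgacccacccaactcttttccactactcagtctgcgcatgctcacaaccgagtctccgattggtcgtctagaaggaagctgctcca
Nfkbib: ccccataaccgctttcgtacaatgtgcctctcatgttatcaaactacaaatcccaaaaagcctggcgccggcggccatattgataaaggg
Kcna4 has 1 match, TGACTGTGC, to the antioxidant response element core on its own strand, starting 80 bases before its start site. In the full promoter windows, from 250 bases before to 50 past the start, the core was found in 1 of these 4 genes and in 12.4% of all 32851 RefSeq promoters. The TCF/LEF letters were in 3.73% and the AP-1 letters in 5.20% of all promoters, and in 0 of the 4 genes.

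The 7 genes were not the only ones with this pattern. Over all genes, 16792 symbols held 0 to 2 counts in CTRL, 31 of them reached the filter through the models, and 26 were called higher in both models, the 7 and another 19. A gene with so few CTRL counts could be tested only if a model raised it, so these calls show no more than the choice. Of the 31, ranked by fitted log2 fold change, the 7 held ranks 1, 2, 4, 5, 6, 8 and 14 in MODEL1, and ranks 1, 2, 3, 4, 6, 7 and 9 of 26 in MODEL2. Just below the lowest of them came Abcc4 and Notum in MODEL1 (181 and 167 counts, each with 1 in CTRL) and Klhl31 and Gm10872 in MODEL2 (37 and 197 counts, with 0 and 2 in CTRL). Nfkbib, the lowest in MODEL1, held 56 counts and Lrrc75b, the lowest in MODEL2 by this rank, 313.

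**Figure D4:**
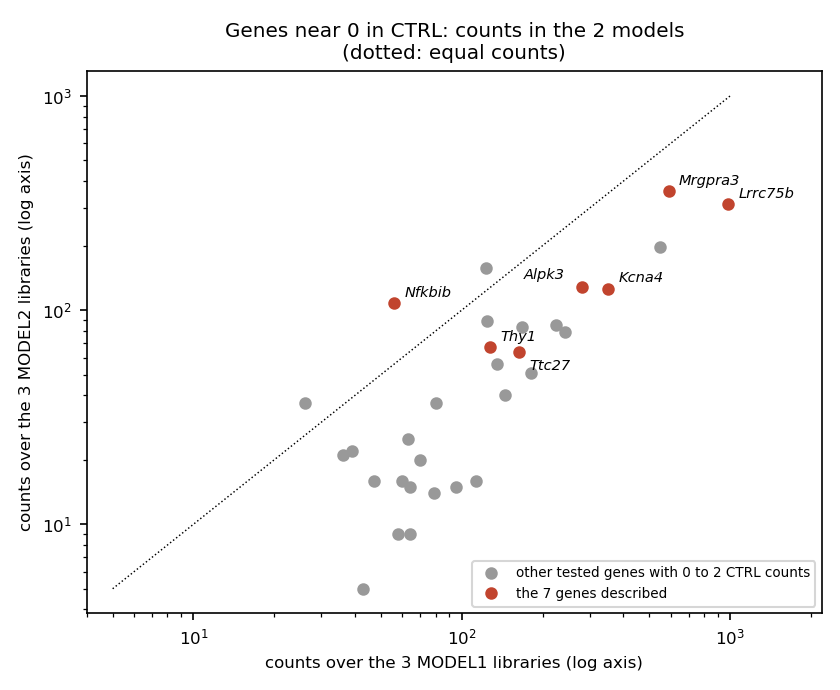
Counts over the 3 MODEL1 libraries (horizontal, log axis) and the 3 MODEL2 libraries (vertical, log axis) for the 31 tested genes with 0 to 2 CTRL counts; the 7 genes described are red and labelled. Nfkbib (56 and 108) lies above the dotted line of equal counts, and the other 6 lie below it.

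Profiles most like each gene were found by the root mean square difference of log2(CPM + 2) over the 9 libraries after centring, which the shared rise from CTRL dominates. The lincRNA Gm16063 (chromosome 5, 119625942 to 119634464) was nearest among tested genes to Kcna4 (difference 0.422), Alpk3 (0.335), Ttc27 (0.495) and Mrgpra3 (0.866). It held 0 counts in CTRL, 53, 81 and 108 in MODEL1, and 22, 37 and 20 in MODEL2. Gm16063 ends 36204 bases before Tbx3, a beta-catenin target gene in liver, which held 2, 37 and 11 counts in the groups. Slc22a12, a urate transporter gene with 0, 135 and 56 counts, was nearest to Thy1 (0.400) and the second for Kcna4 (0.682), Alpk3 (0.640) and Ttc27 (0.568); its exons overlap those of Nrxn2 on the other strand.

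Gm10872, with 2, 546 and 197 counts, was nearest to Lrrc75b (0.660) and the third for Kcna4 (0.753). Fermt1, with 3 CTRL counts just outside the limit of 2, then 757 in MODEL1 and 255 in MODEL2, was the second for Mrgpra3 (1.03) and the third for Alpk3 (0.775). Veph1, with 13, 729 and 456 counts, was the third for Ttc27 (0.654), and Notum, the secreted Wnt inhibitor, the second for Thy1 (0.534). The 3 nearest to Nfkbib were Nrxn2 (0.898; 22, 572 and 701 counts), Foxp1 (0.902; 2, 123 and 157) and Veph1 (0.916). Among the 7 themselves the nearest pair was Kcna4 and Alpk3 (0.411), and Nfkbib lay 1.15 from its nearest, Thy1.

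Most relatives of the 7 genes had too few counts to be tested, and Lrrc75a was the 1 called. Of 10 other Shaker subunits and their beta subunits 6 had no counts; Kcnab1 was the 1 tested, with log2 fold changes of 0.47 in MODEL1 (edgeR adjusted p = 0.446) and 0.56 in MODEL2 (0.401), and it has an opposite-strand exon. Of 19 other Mas-related receptors 14 had no counts, and the most in any group was 21, for Mas1 in MODEL1, with 4 in CTRL and 5 in MODEL2. The 5 other alpha-kinase genes summed to 6, 7 and 0 counts in CTRL, MODEL1 and MODEL2, and none was tested. The 14 other NF-kB subunits, inhibitors and kinases summed to 50, 73 and 54 counts, with none tested, and Nfkbia, the best known partner inhibitor, held 2, 6 and 0. Among 7 counted relatives of Ttc27 and Lrrc75b, Lrrc75a was tested. It held 4, 6 and 6 counts in CTRL, 24, 19 and 32 in MODEL1, and 16, 6 and 22 in MODEL2. Lrrc75a rose by 1.95 log2 units in MODEL1 (edgeR adjusted p = 0.00764) and had a log2 fold change of 1.33 in MODEL2 (0.112); it too has an opposite-strand exon.

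Markers of the cell types in which these genes are known were mostly near 0. That does not show that a cell type was absent, and depth is not the only limit. Even Alb held only 94 to 337 counts in libraries of 219504 to 325177 counts. The strand counted is also unknown, so a low count need not mean little RNA of that gene. The hepatocyte markers Hnf4a (19, 20 and 7 counts in the groups) and Asgr1 (8, 10 and 8) were low too. Of 11 counted T cell markers 4 were at 0 in all libraries and Cd3e held 2, 1 and 0 counts in the groups. Their sum, 352 to 489 CPM in CTRL, 361 to 497 in MODEL1 and 415 to 553 in MODEL2, was nearly all Cd247 (287, 357 and 336 counts of 303, 364 and 342), which has an opposite-strand exon and whose log2 fold changes were 0.06 (edgeR adjusted p = 0.893) and 0.13 (0.776). The 12 fibroblast and stellate markers summed to 0 to 20.2 CPM in CTRL, 17.0 to 22.8 in MODEL1 and 0 to 11.5 in MODEL2, with Col1a1 at 2, 2 and 0 counts and Pdgfrb at 0, 0 and 1. Thy1 by itself was at 104 to 205 CPM in MODEL1 and 57.5 to 160 in MODEL2. In both models that was above the fibroblast and stellate sum and below the T cell sum, which Cd247 made up nearly alone. Cd5, the next highest T cell marker, held 11, 3 and 4 counts in the groups, against 0, 127 and 67 for Thy1. Which cells gave the Thy1 reads was not tested.

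Of the 12 sensory neuron markers 7 were at 0, including Trpv1 and Calca, and the sum was 24.3 to 84.8 CPM in CTRL, 25.1 to 34.2 in MODEL1 and 4.07 to 34.6 in MODEL2, most of it Hpgds (30, 23 and 13 counts). Of the 12 striated muscle markers 6 were at 0, including Tnnt2 and Actc1. The 12 summed to 37.7 to 92.9 CPM in CTRL, 46.7 to 75.9 in MODEL1 and 32.5 to 51.8 in MODEL2. Ttn, the 1 tested member, had log2 fold changes of -0.01 (edgeR adjusted p = 0.991) and -0.53 (0.566), and it has an opposite-strand exon. Only Cd247 and Ttn of these 4 marker lists were tested, neither was called, and no fibroblast or sensory neuron marker could be tested. Hepatocyte markers, 7 tested of 11 counted, summed to 3111 to 3646 CPM in CTRL, 1237 to 2039 in MODEL1 and 1629 to 2409 in MODEL2, with 4 called lower in MODEL1 and 3 in MODEL2, where 11% and 4.96% of all tested genes were called lower (medians -0.99 and -0.85, against 0.00 for all tested genes in both). The 18 NRF2 targets summed to 505 to 738 CPM in CTRL, 2190.5 to 3229 in MODEL1 and 1411 to 1596 in MODEL2. The 14 Wnt and pericentral targets summed to 218 to 390 CPM in CTRL, 839 to 1695 in MODEL1 and 411 to 618 in MODEL2. Several of these targets had at most 2 CTRL counts and could be tested only through the models, so no count of calls is given for them. These sums moved in the same libraries as the 7 genes, and their part in the result was not tested.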

How the data were processed

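The deposited table holds raw counts per gene symbol, made by the authors and not normalized, with 1 column per library. Trimmomatic 0.38, HISAT2 2.1.0, HTSeq 0.11.2 and mm10 are named per the submitters' processing notes, which give no annotation or strand setting. Groups come from the labels. Genes were filtered with filterByExpr (minimum count 10), leaving 2639, scaled by edgeR's TMM factors, and fitted in R 4.3.3 with edgeR 4.0.16 (quasi-likelihood, 9 libraries, 1 coefficient per group). p-values were two-sided and Benjamini-Hochberg adjusted over all genes tested (threshold 0.05), and the SE is the log2 fold change divided by the square root of F. CPM used the effective library size of the tested genes. The fit was tested on simulated data: among 2440 genes in MODEL1 against CTRL, 29.5% of those changed 2-fold and 88.5% of those changed 4-fold were recovered. DESeq2 1.42.0 was an alternative. Gene positions are from GENCODE M21 (mm10), promoters from RefSeq. Named genes were the 7, neighbours by position, the 3 most similar tested profiles each, the next 2 genes in rank in each model, and members of family and marker lists (Shaker channels, alpha-kinases, Mas-related receptors, NF-kB, repeat proteins, T cell, fibroblast, sensory neuron, muscle, hepatocyte, NRF2 and Wnt); Tbx3, Capn12, Fermt1's CTRL count and single markers in the lists were singled out after values were seen. The genes and lists were chosen with earlier results of these data known.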

Additional observations from a re-analysis of the deposited data

How the results depend on the processing

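In MODEL2 against MODEL1 the number of the 7 called was 2, it was 1 with age as a covariate, and it ranged from 1 to 3 when 1 library was left out; Lrrc75b was called each time. Ttc27 passed with DESeq2's size factors in edgeR (0.0456) and without CTRL replicate 1 (0.0453), 2 (0.0373) or 3 (0.0403), Alpk3 without MODEL1 replicate 1 (0.0334), and Nfkbib without the libraries with over 8% Rn45s (0.0446), a fit that left MODEL1 with replicate 2 alone, assumed to vary like the other groups. Over all genes, 602 were called in MODEL1 against CTRL, 299 with age and 299 without the libraries over 8% Rn45s (497 to 636 leaving out 1 library). In MODEL2 against CTRL 350 were called, 71 with age, 210 without those libraries and 221 without CTRL replicate 1 (221 to 379 leaving out 1 library). In MODEL2 against MODEL1 192 were called, 101 with age, 62 without those libraries, 125 with the replicate number as a block, and 85 to 226 leaving out 1 library, lowest without MODEL2 replicate 1; the cause was not tested. The number only names the libraries: the 9 same-numbered pairs correlated at -0.12 to 0.01 in their deviations from the group means, and 0 of 9 libraries matched best with its own number. The block changed no call of the 7. Counts of 0 allow up to 14.6 CPM in a library, so low expression of these genes in CTRL was not detectable at this depth.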
